A study of Mus musculus with 6 samples.

Results

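The levels of 10 genes of cell cycle arrest and cell death were followed in the mouse stomach corpus, the main glandular region, which holds parietal and chief cells. They are the tumour suppressor gene Trp53, its target genes Mdm2, Cdkn1a, Ccng1, Bax and Bbc3, and the cyclin-dependent kinase (CDK) inhibitor genes Cdkn1b, Cdkn2a, Cdkn2b and Cdkn2c. Cdkn1a belongs to both sets. They were picked by name, and all 10 were found, each on 1 row, among the 18988 rows of the expression table. RNA was sequenced from 6 C57BL/6 mice, 1 mouse per library: 3 controls with the genotype Ras;APC FF (replicates 1 to 3) and 3 mice with the genotype PGC;Ras;APC FF (replicates 4 to 6). Ras and APC FF are thus carried by both groups, and the groups differ in PGC. What PGC and FF stand for is not explained in the labels, nor are age, sex, inducing treatment, time point or the cell type in which an allele acts given, and the libraries hold whole corpus rather than sorted cells. By its title, the series is about gastric cancer induction in the corpus through oncogenes activated in succession, and the comparison bears on how these genes differ when PGC is added.

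As background, the p53 protein, encoded by Trp53, is a transcription factor that is held low by the ubiquitin ligase Mdm2 and accumulates when DNA is damaged or an oncogene is active. Its control is largely at the level of protein stability, so an mRNA level says little about p53 activity, which is read instead from target genes such as Cdkn1a (p21), Mdm2, Ccng1, Bax and Bbc3 (PUMA). The CDK inhibitors form a pair of families. The CIP/KIP proteins (Cdkn1a, Cdkn1b, Cdkn1c) bind cyclin-CDK complexes broadly, and the INK4 proteins (Cdkn2a, Cdkn2b, Cdkn2c, Cdkn2d) bind CDK4 and CDK6 and keep the retinoblastoma protein active. The Cdkn2a locus also encodes p19Arf, which inhibits Mdm2 and so links oncogene activity to p53.

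Sequences near the starts of these genes are shown where a motif search found a match to p53 or to E2F, the factor that the retinoblastoma protein restrains. RefSeq promoter windows (GRCm38.p6, the assembly that mm10 names) were at hand for all 10 genes, 15 windows in all, each running from 250 bases before to 50 bases after an annotated start. The windows were searched for the p53 consensus (a pair of adjoining 10-base half-sites, 20 bases, up to 2 mismatches, with the C and G of each half-site core required). The consensus is its own reverse complement. It was found in 2 of the 15 windows, against 0.326% of the 32851 windows of that length genome-wide, and the members had been chosen partly as known p53 targets. Capitals mark the 20 matched bases, each with 1 mismatch.
Cdkn1a, chr17:29090908-29090967, plus strand: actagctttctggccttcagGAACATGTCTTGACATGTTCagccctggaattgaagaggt
Ccng1, chr11:40755442-40755501, minus strand: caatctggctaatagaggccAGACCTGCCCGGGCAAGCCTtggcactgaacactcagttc
The Cdkn1a match begins 51 bases before the upstream of its start sites and 2841 bases before the downstream one, and the Ccng1 match begins 195 bases before its start. An E2F motif search (TTTCCCGC, TTTCGCGC, TTTGGCGC or TTTGCCGC, on either strand) found 1 match in the 15 windows, against 2.26% of all windows with at least 1. It lies in the upstream Cdkn2a window, that of the Arf transcript, and capitals mark the motif.
Cdkn2a (Arf start), chr4:89294691-89294738, minus strand: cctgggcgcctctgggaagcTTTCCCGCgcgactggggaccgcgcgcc
A match describes these letters only, and a window without one says nothing about binding elsewhere in the gene.

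Values are the authors' FPKM, by definition fragment counts divided by gene length and by the size of the library, though how they were computed is not given. Log2 changes are of log2(FPKM + 1), PGC;Ras;APC FF minus control. Genes with at least 1 FPKM in at least 3 libraries were tested with limma, 11857 genes in all, with Benjamini-Hochberg adjustment over all of them and a threshold of 0.05. With 3 mice a group, the smallest two-sided p of an exact test is 0.1, so calls rest on the spread that limma shares across genes. The libraries were not alike in makeup. Genes at 1 FPKM or more numbered 11465 to 12407 per library. PGC;Ras;APC FF replicate 6 stood apart: the 3 digestive genes Pgc, Clps and Pla2g1b took 6.36% of its summed FPKM, against 31.7% to 48.1% in the other 5. Summed FPKM ran from 664821 to 804774 per library. A typical tested gene had a log2 change (median) of 0.26 as FPKM. It was -0.0071 after median-of-ratios scaling, which sets the typical gene equal between libraries. Changes are therefore given against that shift, whose cause was not tested. Corpus identity was visible in every library, with summed parietal cell markers (5 genes) at 7752 to 9666 FPKM in controls and 7843, 8645 and 1736 in replicates 4 to 6. Of the 5, Atp4b and Kcnq1 were lower in every PGC;Ras;APC FF library than in any control, beside 5.47% of tested genes. Another of these markers, Gif (group means of 1796 and 1943 FPKM), is also on the chief cell list used below. Control replicate 3 was the only library with the Y-linked gene Eif2s3y (13.15 FPKM), and sex was not in the model. In whole tissue, fewer cells of a type and less RNA per cell cannot be told apart.

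In the PGC;Ras;APC FF corpus, Trp53 mRNA, Cdkn2a and the death genes Bax and Bbc3 stood at higher FPKM in every library than in any control. The group means differed by 2.14 times for Trp53, 1.89 for Bax and 2.04 for Bbc3, and without replicate 6 by 1.69, 1.43 and 1.52 times. For Cdkn2a they differed by 32.7 times, and by 12.6 times without replicate 6, on a control mean of 0.153 FPKM, and its lack of overlap was required by the expression filter. The p53 targets Mdm2 and Ccng1 and the inhibitors Cdkn1b, Cdkn2b and Cdkn2c overlapped between the groups. Cdkn1a was only slightly higher (1.26 times). None of the 10 passed the threshold in limma with all 6 libraries, in either direction, against 0.110% of tested genes called higher and 0.0422% called lower. At an unadjusted limma p under 0.05, 4 of 10 were higher and 0 lower, beside 31.8% and 3.63% of all tested genes. In 5 of 10 every PGC;Ras;APC FF library was above every control, beside 42.7% of tested genes, and in 0 of 10 every such library was below, beside 5.47%, so the share is near the background. After median-of-ratios scaling 3 of 10 were higher without overlap (Trp53, Cdkn2a and Bax) and 3 lower (Mdm2, Cdkn1b and Ccng1), beside 17.6% and 17.5% of tested genes. Cdkn2a is counted among the 4, the 5 and the 3, although the filter fixed its side. No member was called in limma after that scaling, with 0.0759% of tested genes called higher and 0.0843% lower. Their median log2 change, 0.27, was likewise close to the 0.26 of all tested genes. Ordered by control mean, the levels ran from Cdkn1a (106.5 FPKM) through Cdkn2b (35.6), Ccng1 (35.2), Bax (25.0), Trp53 (15.7), Cdkn1b (10.8), Mdm2 (8.54), Cdkn2c (6.58) and Bbc3 (1.85) to Cdkn2a (0.153). In that order the neighbours Cdkn2b and Ccng1, and Cdkn1b and Mdm2, overlapped over the control libraries. In the PGC;Ras;APC FF means Bax (47.3 FPKM) was next to Cdkn1a (134.4), and Trp53 (33.6) was above Ccng1 (32.7), with overlapping libraries.

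**Figure D1:**
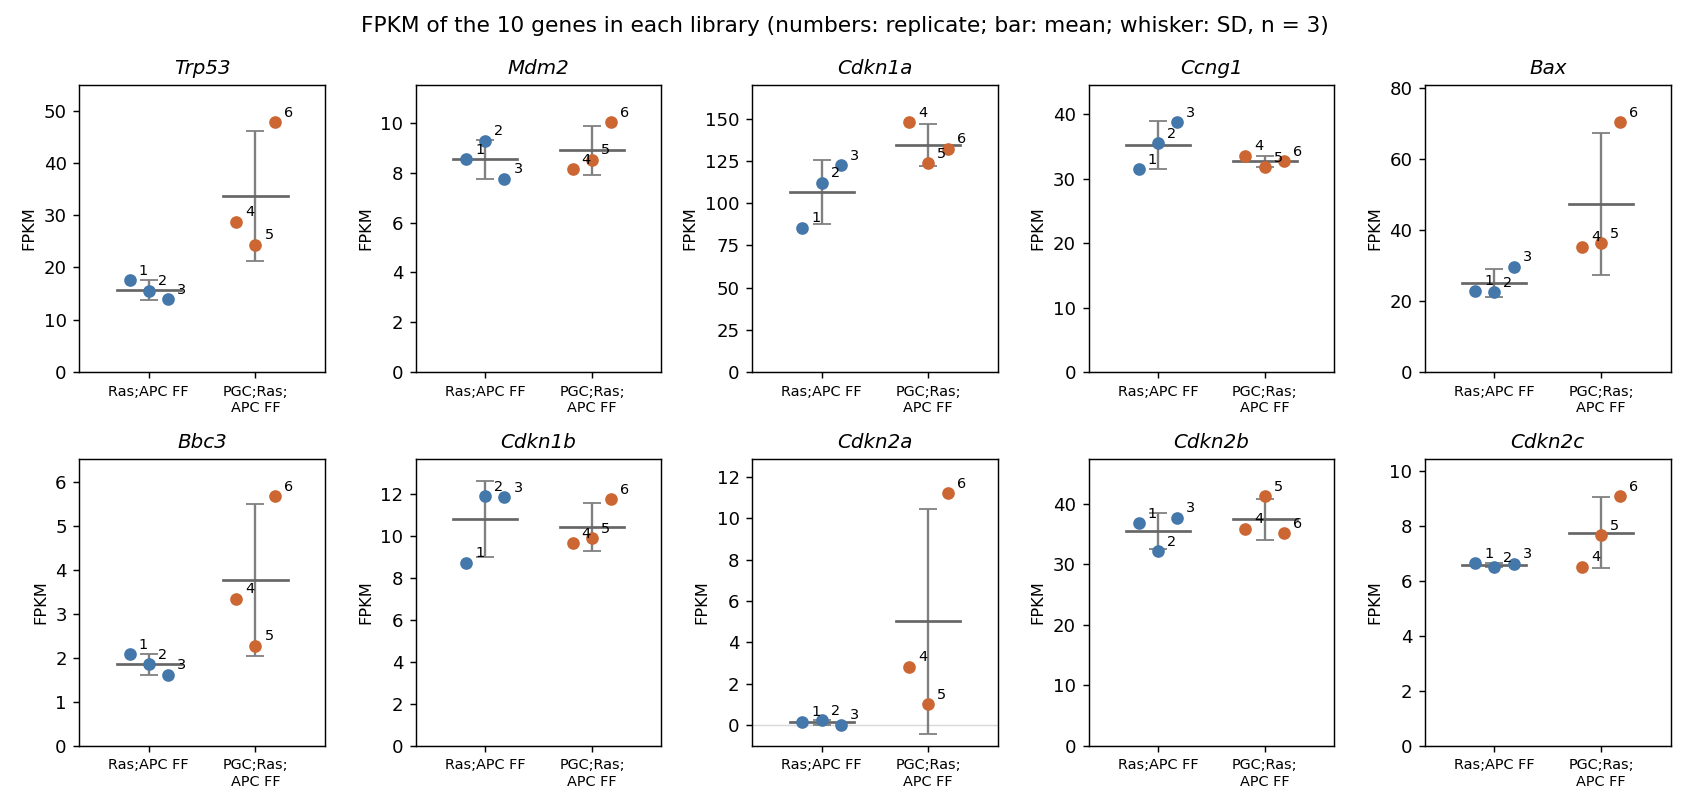
FPKM (vertical axis, linear) of each gene in the 3 control libraries (blue) and the 3 PGC;Ras;APC FF libraries (orange), with replicate numbers beside the points, group means as bars and SD as whiskers. Trp53, Cdkn2a, Bax, Bbc3 and Cdkn1a show no overlap between groups, which for Cdkn2a the expression filter required. Replicate 6 is the highest point for Trp53 (47.76), Cdkn2a (11.19), Bax (70.29) and Bbc3 (5.68).

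Trp53 (ENSMUSG00000059552.13, chromosome 11, 69580359 to 69591873, plus strand) was at 17.62, 15.58 and 13.89 FPKM in control replicates 1 to 3, against 28.77, 24.32 and 47.76 FPKM in replicates 4 to 6. All 3 PGC;Ras;APC FF libraries were above the highest control, and replicate 6 was far above the other 2. The means were 15.7 ± 1.87 and 33.6 ± 12.4 FPKM (SD, n = 3 each), a log2 change of 1.00 ± 0.24 (SE, 95% interval 0.44 to 1.56) with a limma adjusted p of 0.085. The call changed with the libraries and weights used. Without replicate 6 Trp53 rose, with a log2 change of 0.72 and a limma adjusted p of 0.031, beside 8.11% of tested genes called higher and 0.961% lower in that fit. That call was in turn lost after median-of-ratios scaling, where the log2 change without replicate 6 was 0.53 (limma adjusted p = 0.111, beside 0.582% of tested genes called higher and 0.481% lower). Leaving out replicate 5 also gave a call (log2 change 1.20, limma adjusted p = 0.0407), beside 413 genes called higher and 45 lower in that fit. So did array weights over all 6 libraries (0.76, limma adjusted p = 0.00472), beside 3523 of 11857 tested genes called higher and 369 lower. With all 6 libraries and median-of-ratios scaling the levels were 20.4, 16.9 and 15.2 in controls against 27.6, 23.5 and 36.7 with PGC;Ras;APC FF, still without overlap.

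Mdm2, which encodes the ligase that marks p53 for degradation and is itself a p53 target (chromosome 10, 117688875 to 117710758, minus strand), was at 8.56, 9.30 and 7.76 FPKM in controls and 8.16, 8.53 and 10.03 FPKM in replicates 4 to 6. The groups overlapped. The log2 change was 0.053 ± 0.14 (95% interval -0.26 to 0.37). After median-of-ratios scaling the sign turned: every PGC;Ras;APC FF library was below every control, at 7.83, 8.26 and 7.72 against 8.50 to 10.1, with a log2 change of -0.23 (limma adjusted p = 0.203). Within each library, which removes the library total, the Mdm2 to Trp53 ratio of FPKM was 0.486, 0.597 and 0.559 in controls and 0.284, 0.351 and 0.210 in replicates 4 to 6. Each PGC;Ras;APC FF library thus held less Mdm2 mRNA per Trp53 mRNA than each control, including replicates 4 and 5. No test was run on these ratios.

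Cdkn1a, the p21 gene that carries the p53 match shown above (chromosome 17, 29090976 to 29100727, plus strand), was the most abundant of the 10 in every library. It was at 85.3, 111.98 and 122.29 FPKM in controls and 147.71, 123.47 and 132.12 FPKM in replicates 4 to 6. The groups did not overlap, but replicate 5 was only just above control replicate 3. The log2 change was 0.35 ± 0.18 (95% interval -0.063 to 0.75) with a limma adjusted p of 0.188. The order was lost after median-of-ratios scaling, with 98.7, 121.8 and 133.9 in controls and 141.7, 119.6 and 101.6 in replicates 4 to 6 (log2 change 0.032), and the sign turned to -0.02 when the library total was taken without the 50 most abundant genes. Unlike Trp53, Cdkn1a was not highest in replicate 6.

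Ccng1, cyclin G1, the other gene with a p53 match near its start (chromosome 11, 40748552 to 40755311, minus strand), was at 31.42, 35.49 and 38.71 FPKM in controls and 33.57, 31.76 and 32.65 FPKM in replicates 4 to 6. The 3 PGC;Ras;APC FF values all fell within the control range. The log2 change was -0.10 ± 0.13 (95% interval -0.40 to 0.20, limma adjusted p = 0.569). After median-of-ratios scaling the groups no longer overlapped, with 36.3 to 42.4 in controls and 32.2, 30.8 and 25.1 in replicates 4 to 6 (log2 change -0.41, limma adjusted p = 0.135). With either scaling, neither of the genes whose windows hold a p53 match passed the threshold.

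Bax and Bbc3 act at mitochondria: Bax forms pores in the outer membrane, and PUMA, a BH3-only protein encoded by Bbc3, triggers it. Bax (chromosome 7, 45461697 to 45466898, minus strand) was at 22.9, 22.53 and 29.63 FPKM in controls and 35.3, 36.27 and 70.29 FPKM in replicates 4 to 6. Every PGC;Ras;APC FF library was above every control, with replicate 6 well above the others. The means were 25.0 ± 4.00 and 47.3 ± 19.9 FPKM (SD, n = 3 each) and the log2 change was 0.83 ± 0.27 (limma adjusted p = 0.0969). Without replicate 6 it was 0.51 (limma adjusted p = 0.0597). After median-of-ratios scaling it was 0.52 (limma adjusted p = 0.182) with all 6 libraries and 0.31 without replicate 6 (limma adjusted p = 0.251). Another annotated gene, Gm45808, overlaps Bax on the same strand, so reads over the shared stretch are uncertain.

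Bbc3 (chromosome 7, 16308393 to 16318205, plus strand) was a low gene, at 2.08, 1.85 and 1.62 FPKM in controls and 3.35, 2.28 and 5.68 FPKM in replicates 4 to 6. Replicate 5 was just above control replicate 1, and replicate 6 was the highest. The log2 change was 0.68 ± 0.25 (limma adjusted p = 0.108), and 0.41 without replicate 6 (limma adjusted p = 0.115). After median-of-ratios scaling the groups overlapped, since replicate 5 (2.21) was then below control replicate 1 (2.41). The Bbc3 to Bax ratio was 0.0908, 0.0821 and 0.0547 in controls and 0.0949, 0.0629 and 0.0808 in replicates 4 to 6. These ratios overlapped between the groups.

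Cdkn2a had the largest difference of the 10. The locus (ENSMUSG00000044303.6, chromosome 4, 89274471 to 89294653, minus strand) makes the p16Ink4a and p19Arf messages from start sites 12427 bases apart, which share later exons read in different frames. The annotation has 1 transcript for each start, and a gene-level FPKM does not separate them. Controls had 0.17, 0.26 and 0.03 FPKM of the gene, against 2.83, 1.03 and 11.19 FPKM in replicates 4 to 6. The controls were all near the bottom of the scale, and among the PGC;Ras;APC FF libraries replicate 6 was far above replicate 4, and replicate 4 above replicate 5. The log2 change was 1.99 ± 0.56 (95% interval 0.69 to 3.29, limma adjusted p = 0.0879), and 3.84 and 4.68 with pseudocounts of 0.1 and 0.01 in place of 1. Cdkn2a passed the expression filter only through its 3 PGC;Ras;APC FF values, so the absence of overlap was required by the filter. With replicate 4, 5 or 6 left out and the filter applied anew, it was not tested. With the filter kept from all 6 libraries, its log2 change without replicate 6 was 1.28 (limma adjusted p = 0.0342), and 1.22 after median-of-ratios scaling (limma adjusted p = 0.0715). These values rest on a gene that passed the filter through the library then left out, so they give no support of their own.

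Cdkn2b, the p15Ink4b gene, lies 11645 bases from Cdkn2a on the same strand (chromosome 4, 89306299 to 89311039). It was at 36.84, 32.16 and 37.73 FPKM in controls and 35.93, 41.31 and 35.17 FPKM in replicates 4 to 6. Neither group stood above the other (log2 change 0.073 ± 0.13, 95% interval -0.24 to 0.38, limma adjusted p = 0.693). The log2 change of Cdkn2b was -0.23 after median-of-ratios scaling. The neighbours thus differed in pattern: Cdkn2a was nearly silent in controls, and Cdkn2b was the most abundant INK4 gene in all 6 libraries. Cdkn2b took 75.6% to 76.4% of summed INK4 FPKM in controls and 72.3%, 74.9% and 55.4% in replicates 4 to 6. Cdkn2a took 0.0603% to 0.611% in controls and 5.70%, 1.87% and 17.6% in replicates 4 to 6.

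Cdkn2c, the p18Ink4c gene (chromosome 4, 109660876 to 109667189, minus strand), was at 6.64, 6.49 and 6.62 FPKM in controls and 6.52, 7.65 and 9.08 FPKM in replicates 4 to 6. The controls were closely grouped, and replicate 4 lay among them while replicates 5 and 6 were higher. The log2 change was 0.20 ± 0.14 (limma adjusted p = 0.325), with a turned sign after median-of-ratios scaling (-0.082). Cdkn1b, the p27 gene (chromosome 6, 134920401 to 134925513, plus strand), was at 8.72, 11.88 and 11.82 FPKM in controls and 9.63, 9.89 and 11.74 FPKM in replicates 4 to 6. All 3 PGC;Ras;APC FF values of Cdkn1b fell within the control range (log2 change -0.041 ± 0.16, limma adjusted p = 0.855). After median-of-ratios scaling they were 9.24, 9.58 and 9.03 against 10.1 to 12.9 in controls (log2 change -0.33, limma adjusted p = 0.164).

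**Figure D2:**
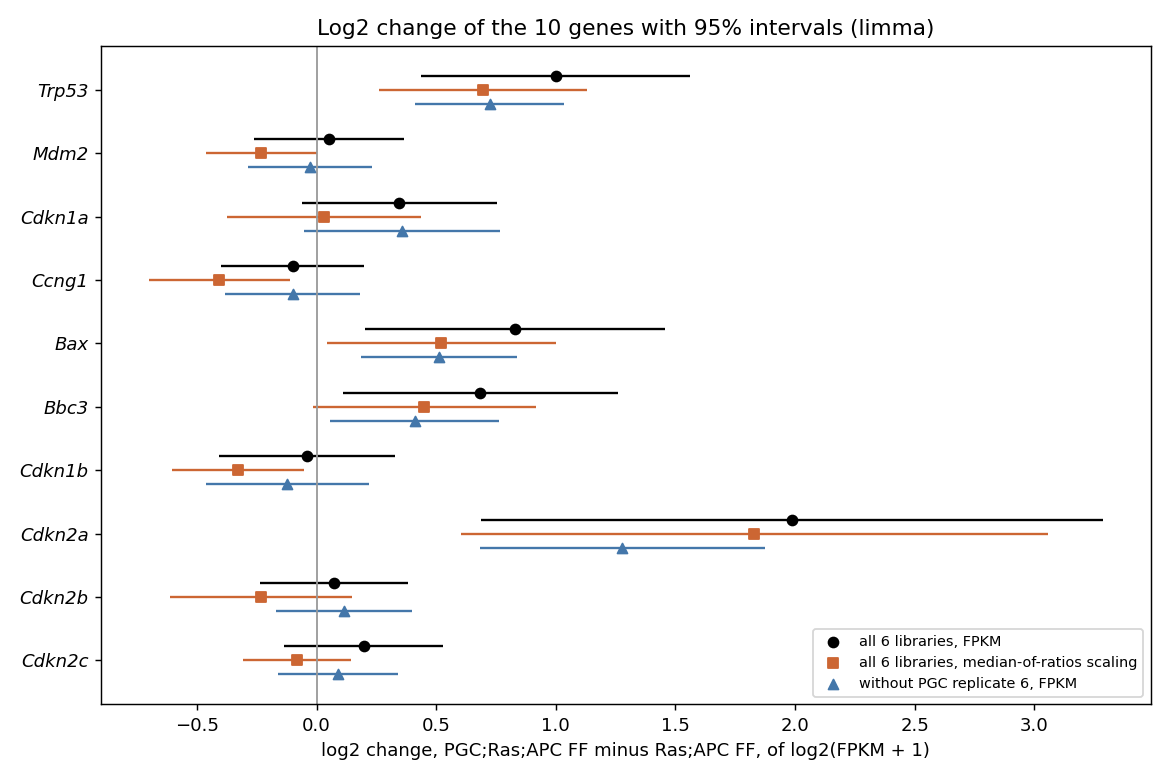
Log2 change (horizontal axis, PGC;Ras;APC FF minus control, of log2(FPKM + 1)) with 95% limma intervals for each gene, from all 6 libraries on the FPKM scale (black), after median-of-ratios scaling (orange) and without replicate 6 (blue). The intervals of Trp53 and Bax lie above 0 in all 3 fits, as do those of Cdkn2a, whose side the expression filter fixed. The intervals are unadjusted, and 31.8% of tested genes were higher at an unadjusted limma p under 0.05 in the black fit. With both median-of-ratios scaling and replicate 6 left out (not drawn), the Bax interval was -0.0048 to 0.63. Mdm2, Cdkn2b and Cdkn2c have estimates on both sides of 0.

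Within the CIP/KIP family, Cdkn1a took 67.1% to 77.6% of summed FPKM in controls and 73.1% to 79.2% in PGC;Ras;APC FF, an overlapping range. The Cdkn1a to Cdkn1b ratio was 9.78, 9.43 and 10.35 in controls and 15.34, 12.48 and 11.25 in replicates 4 to 6, without overlap. The Cdkn2c to Cdkn1b ratio was 0.762, 0.546 and 0.560 in controls and 0.677, 0.774 and 0.773 in replicates 4 to 6, with overlap. A further pair of ratios was chosen after the values were seen. Bax to Ccng1 was 0.729, 0.635 and 0.765 in controls and 1.05, 1.14 and 2.15 in replicates 4 to 6, so that the death gene was higher against the cyclin gene in every PGC;Ras;APC FF library. Cdkn1a to Trp53 overlapped, at 4.84, 7.19 and 8.80 in controls and 5.13, 5.08 and 2.77 in replicates 4 to 6.

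**Figure D3:**
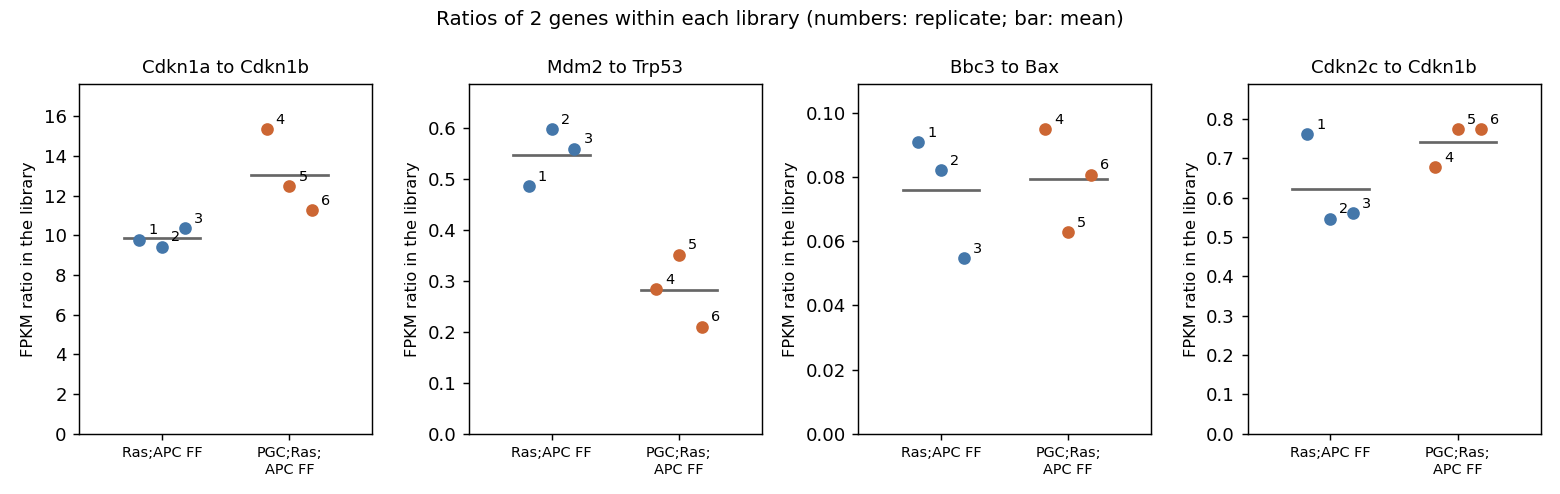
FPKM ratio of 2 genes in each library (vertical axis, from 0), with controls in blue, PGC;Ras;APC FF in orange and group means as bars. The Mdm2 to Trp53 ratio is at most 0.351 in the PGC;Ras;APC FF libraries and at least 0.486 in the controls, and the Bbc3 to Bax ratio overlaps.

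Other genes of the pathways were taken from lists chosen with earlier results of these data known, members left out. For all lists, calls made without replicate 6 stand beside 8.11% of tested genes called higher in that fit, and 0 list genes were called there after median-of-ratios scaling, so every such call named below was lost under that scaling. Of 26 further p53 target genes 23 were tested, and 0 passed in either direction (limma). At an unadjusted limma p under 0.05, 4 were higher (Aen, Gdf15, Gtse1 and Sfn) and 1 was lower (Sesn1), beside 31.8% and 3.63% of all tested genes. Their median log2 change was 0.32, beside 0.26 for all tested genes, and 20 of 23 log2 changes were positive, beside 9558 of 11857. Without overlap between groups, 8 of 23 were higher and 2 lower, beside 42.7% and 5.47% of tested genes. Sfn, the 14-3-3 sigma gene of the G2 checkpoint and of epithelial cells, was at 13.39, 15.5 and 26.0 FPKM in controls and 55.59, 48.96 and 147.59 FPKM in replicates 4 to 6 (log2 change 2.01, limma adjusted p = 0.085). Aen, an apoptosis-enhancing nuclease, was at 3.96 ± 0.279 and 7.06 ± 1.45 FPKM, and Gdf15, a stress-induced cytokine of the TGF-beta family, at 0.637 ± 0.185 and 1.87 ± 0.627 FPKM (SD, n = 3 each). Without replicate 6, Sfn, Aen and Gdf15 rose, with log2 changes of 1.52, 0.54 and 0.63 and limma adjusted p of 0.0268, 0.0315 and 0.045. Sesn1, a stress-response inhibitor of mTORC1, was at 3.78, 4.42 and 4.92 FPKM in controls and 3.43, 3.04 and 3.36 FPKM in replicates 4 to 6.

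Regulators of p53 were close to the background, with 12 of 15 tested, 0 called and a median log2 change of 0.18. Chek2, a DNA damage kinase that phosphorylates p53, was at 2.37 ± 0.175 and 3.70 ± 0.938 FPKM, and Mdm4, the Mdm2 partner that also restrains p53, at 2.12 ± 0.266 and 3.01 ± 0.759 (SD, n = 3 each). Trp53bp1, a scaffold of double-strand break repair, was at 1.41 ± 0.179 and 2.04 ± 0.425 FPKM. The limma adjusted p of these 3 were 0.106, 0.167 and 0.148. The kinase gene Chek1 did not reach the expression filter, at 0.30 to 0.39 FPKM in controls and 1.10, 0.99 and 1.31 in replicates 4 to 6. The p53 family members Trp63 and Trp73 did not reach it either, at 0.03 FPKM or less in every library. In the BCL2 family 11 of 12 genes were tested, 0 passed, and all 11 had a positive log2 change, beside 9558 of 11857 tested genes (median 0.58, and 0.32 after median-of-ratios scaling). Bak1, the other pore-forming effector beside Bax, was at 33.9, 33.96 and 37.52 FPKM in controls and 58.07, 51.09 and 74.95 FPKM in replicates 4 to 6. Bok, an effector relative, was at 15.2 ± 4.46 and 34.0 ± 15.4 FPKM, and Bid, which activates Bax and Bak1, at 1.21 ± 0.161 and 2.85 ± 1.41. The survival genes Bcl2l1 (19.9 ± 0.276 and 32.4 ± 11.8 FPKM), Mcl1 (32.9 ± 2.56 and 45.6 ± 12.2) and Bcl2 (1.35 ± 0.210 and 2.08 ± 0.647) were also higher without overlap, and Bcl2l2 overlapped. In all, 7 of the 11 were higher without overlap, beside 42.7% of tested genes. Of the 11, Bak1 alone was called without replicate 6 (log2 change 0.62, limma adjusted p = 0.0308).

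The kinases that CDK inhibitors act on, with their cyclins and the RB family, were tested for 12 of 13 genes, with 0 called (median log2 change 0.65, and 0.39 after median-of-ratios scaling). Ccnd1, the D-type cyclin that activates CDK4 and CDK6, was at 11.9, 10.74 and 15.05 FPKM in controls and 29.38, 21.4 and 61.45 FPKM in replicates 4 to 6. Ccne1, the CDK2 partner at the entry into S phase, was at 0.687 ± 0.276 and 2.11 ± 0.827 FPKM, and Ccna2, the S and G2 cyclin, at 7.31 ± 1.60 and 13.9 ± 3.91 (SD, n = 3 each). Without replicate 6, 4 of the 12 rose: Ccnd1, Ccne1, Cdk2 and Cdk4. Among the 3 further CDK inhibitor genes 0 passed. Cdkn3, a CDK-associated phosphatase and so not a CIP/KIP or INK4 inhibitor, was at 2.18 ± 0.462 and 4.23 ± 0.582 FPKM, and rose without replicate 6 (log2 change 0.65, limma adjusted p = 0.042). The dividing-cell list had the highest median of the lists (0.89, and 0.63 after median-of-ratios scaling). All 20 members had an unadjusted limma p under 0.05 on the higher side, beside 31.8% of tested genes. With all 6 libraries 0 passed, and 12 rose without replicate 6, a count that fell to 0 after median-of-ratios scaling. Birc5, the mitotic survivin gene, was at 7.54 ± 0.690 and 19.6 ± 7.61 FPKM, and the replicative helicase genes Mcm5 and Mcm6 at 3.72 ± 0.665 and 9.40 ± 3.02, and at 7.73 ± 3.20 and 17.1 ± 2.80.

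The lists for the Cdkn2a-Cdkn2b locus and for p27 turnover were near the background median (0.30 for 10 tested locus regulators, 0.24 for 8 tested genes of p27 turnover and FoxO factors), with 0 called in either. Tbx2 and Tbx3, T-box repressors of the locus, were at 2.21 ± 0.121 and 3.81 ± 0.501 FPKM and at 1.43 ± 0.0404 and 2.90 ± 1.14. Ets2, an ETS factor downstream of RAS-ERK signalling, was at 16.4 ± 1.33 and 32.1 ± 16.0 FPKM. Cks1b, the cofactor of SCF-Skp2 in p27 degradation, was at 6.95, 5.57 and 8.29 FPKM in controls and 15.05, 10.96 and 33.9 FPKM in replicates 4 to 6, while Cdkn1b mRNA overlapped. Uhrf1, a maintenance methylation factor of S phase, was at 2.21 ± 0.803 and 7.11 ± 2.87 FPKM, and Skp1a, an SCF subunit, at 66.7 ± 11.2 and 107.6 ± 28.8. Without replicate 6, Tbx2, Cks1b and Uhrf1 rose (limma adjusted p = 0.0402, 0.0403 and 0.031). Of 12 senescence-associated genes 8 were tested and 0 passed (median log2 change 0.69, and 0.39 after median-of-ratios scaling). The secreted factors Il6, Il1a, Cxcl1 and Mmp3 did not reach the filter and were not tested. Il1a and Cxcl1 were still higher without overlap between groups. No control exceeded 0.07 FPKM of Il1a, whereas replicate 4 had 1.53, replicate 5 had 0.42 and replicate 6 had 7.01. For Cxcl1 the control maximum was 0.12 FPKM, below replicate 4 (0.91), replicate 5 (0.15) and replicate 6 (6.21). Il6 and Mmp3 overlapped between groups, with their highest values in replicate 6 (0.49 and 4.1 FPKM). Lmnb1, a nuclear lamina gene that is usually lost in senescent cells, was at 5.51, 5.14 and 3.94 FPKM in controls and 9.15, 8.67 and 18.3 FPKM in replicates 4 to 6. Glb1, lysosomal beta-galactosidase, was at 19.3 ± 2.13 and 32.5 ± 6.31 FPKM, and the chromatin protein gene Hmga1 at 25.3 ± 2.11 and 66.9 ± 40.5. Without replicate 6, Lmnb1, Glb1 and Hmga1 rose (limma adjusted p = 0.0308, 0.0384 and 0.0262).

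**Figure D4:**
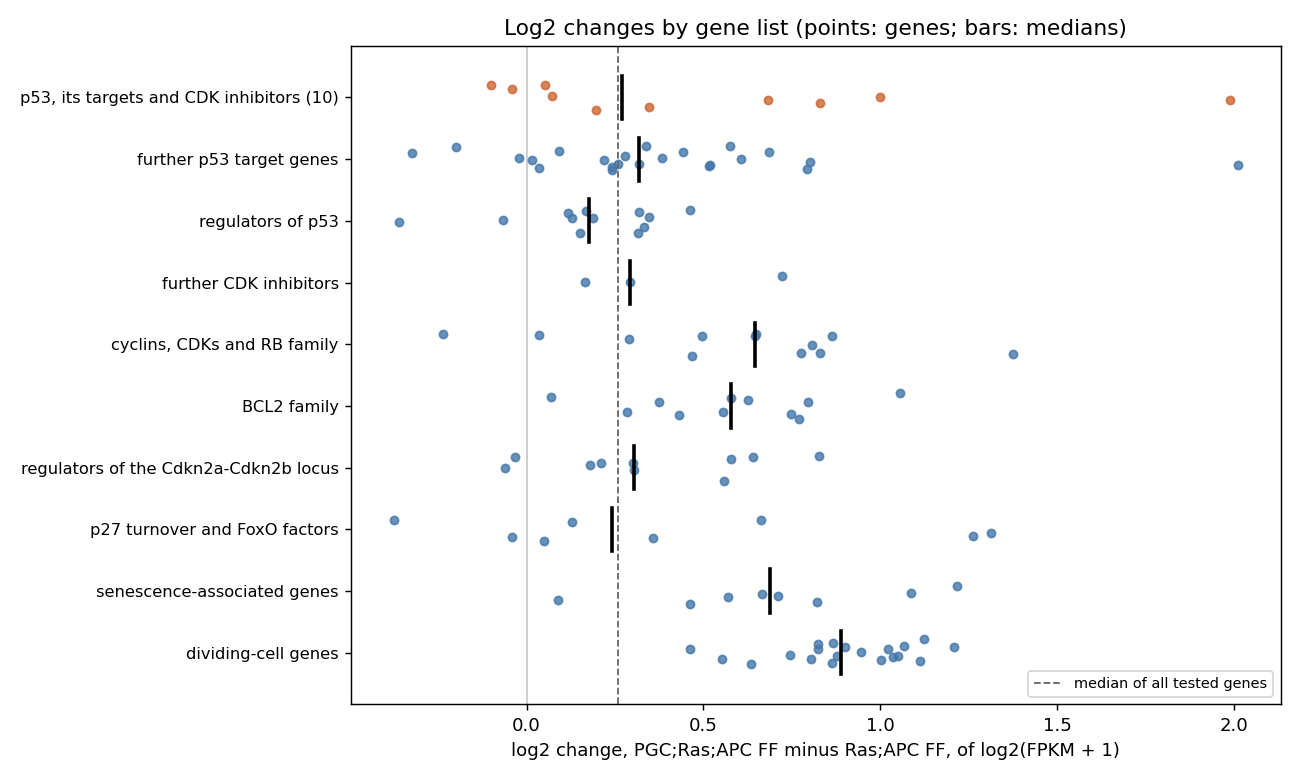
Log2 change (horizontal axis) of each tested gene by list, with list medians as bars and the median of all tested genes (0.26) as a dashed line. The 10 genes (orange) have a median of 0.27. The BCL2 family (0.58), cyclin and CDK (0.65), senescence-associated (0.69) and dividing-cell (0.89) lists lie furthest to the right.

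Markers of several cell types differed between the libraries too. Replicate 6, highest for Trp53, Bax, Bbc3 and Cdkn2a, also had the highest summed leukocyte markers (5 genes, 75.1 FPKM, against 10.5 to 15.8 in controls and 24.8 and 15.2 in replicates 4 and 5). In 3 of those 5 markers every PGC;Ras;APC FF library was above every control, beside 42.7% of tested genes. The leukocyte marker Cd14 was at 2.29 ± 0.320 and 18.7 ± 25.1 FPKM (SD, n = 3 each). Mucous neck markers (2 genes) summed to 2003 to 3068 FPKM in controls and 3645, 3857 and 11047 in replicates 4 to 6. Smooth muscle markers (6 genes) summed to 1897 to 3438 FPKM in controls and 1269, 1108 and 860 in replicates 4 to 6. All 6 genes were lower without overlap, beside 5.47% of tested genes. Adipocyte markers (4 genes) summed to 77.0 to 111.0 FPKM in controls and 49.4, 60.5 and 22.2 in replicates 4 to 6. Of these, 3 of 4 were lower without overlap, beside the same 5.47%. Endocrine markers (4 genes) summed to 3276 to 4053 FPKM in controls and 3222, 3223 and 920 in replicates 4 to 6, and 1 was lower without overlap. Fibroblast markers (4 genes) summed to 200 to 203 FPKM in controls and 278, 198 and 324 in replicates 4 to 6. Of the fibroblast markers 2 were higher without overlap, beside 42.7% of tested genes. Chief cell markers (4 genes) summed to 155780 to 206540 FPKM in controls and 106050, 94486 and 19856 in replicates 4 to 6. Only Pgc among these 4 was lower without overlap, beside 5.47% of tested genes. Pgc, with a control mean of 168346 FPKM, made up most of that sum. Without replicate 6 its log2 change was -1.01, against 0.56 for Chia1, 0.58 for Gif and 0.27 for Bhlha15. Squamous markers, which would mark forestomach, summed to 0.24 to 0.89 FPKM in controls and 3.02 to 5.06 in PGC;Ras;APC FF, and no marker gene of any list was at 0 in all libraries. Their part in the levels of the 10 genes was not tested.

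By Pearson r of log2(FPKM + 1) over the 6 libraries, the tested genes most like Trp53 were Tprg (0.9996), Ybx3 (0.9994) and Med17 (0.9993). Those most like Cdkn1a were Bmpr1a (0.9972), C1galt1c1 (0.9873) and Paqr7 (0.9838), and those most like Cdkn2c were Zfp488 (0.9947), Adat2 (0.9943) and Recql (0.9939). These are the highest values among all tested genes, over few libraries that share replicate 6, and they are given as a description with no test. The 3 gene sets did not overlap.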

How the data were processed

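The deposited values are FPKM, computed and rounded by the authors and given as 1 table with 1 column per mouse. Per the submitters' processing notes, STAR and featureCounts were used on mm10. For the versions, the annotation, the strand setting and how FPKM were computed, the answer is not given in the sources used here. Low FPKM did not resolve into whole reads of the annotated gene length, so depth per library is unknown and no counting interval is given. Labels do not mark a batch, and p-values measure the spread between these mice.

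Values were tested as log2(FPKM + 1) in R 4.3.3 with limma 3.58.1, two-sided, with genotype as the sole term and a mean-variance trend in eBayes. Log2 changes understate the change of low genes. The fit was tested on simulated data with known changes. Coordinates are from GENCODE M21 (GRCm38), matched by symbol, and promoters from RefSeq (GRCm38.p6). From each list, the genes named were those past the threshold or, where fewer than 2 passed, up to 3 of largest log2 change without overlap between groups, and other names were chosen after their values were seen. The members and lists were chosen with earlier results of these data known. One list gene, Cop1, was read under its older symbol Rfwd2. Alternatives covered the pseudocount, filter, scaling, moderation, library weights and each library left out.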

Additional observations from a re-analysis of the deposited data

How the results depend on the processing

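Precision is set by 3 mice a group and by replicate 6, and sequencing depth is unknown. The numbers of genes called moved with single libraries: with 1 library left out, 0 to 832 genes were higher and 0 to 106 lower, against 13 and 5 with all 6. Of the 10 genes 0 to 1 were then called higher, and of the genes of the other lists 0 to 25, each against 0 with all 6. With the filter kept from all 6 libraries and replicate 6 left out, 962 genes were higher and 114 lower, among them 2 of the 10 genes and 27 list genes. The 2 were Trp53 and Cdkn2a, and the filter fixed the side of Cdkn2a. Adding median-of-ratios scaling to that, a setting chosen after seeing the data, gave 69 higher and 57 lower, with 0 of the 10 genes and 0 list genes. Pseudocounts of 0.1 and 0.01 gave 29 and 34 higher, and no filter gave 3. On the lower side, median-of-ratios scaling gave 10, quantile normalization 13, and a total without the 50 most abundant genes 10. Array weights, whose estimate stopped before it reached its tolerance, called 3523 higher and 369 lower, with 5 of the 10 genes (Trp53, Cdkn1a, Cdkn2a, Bbc3 and Bax) and 47 list genes. The cause of these moves was not tested.

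Trp53, Bax and Bbc3 stayed higher and Ccng1 stayed lower in all 17 alternatives. Cdkn2a was higher in the 14 alternatives that gave it a value. It passed the main filter only through its PGC;Ras;APC FF values, so these give no support of their own. Signs turned for genes near 0. Mdm2 was -0.23 with median-of-ratios scaling, -0.24 with quantile normalization, -0.28 with the total without the top 50, -0.063 with array weights, -0.027 without replicate 6 with either filter, and -0.21 without it after median-of-ratios scaling. With single libraries left out it ran from -0.027 to 0.11. Cdkn1a was -0.020 with the total without the top 50. Cdkn1b ran from -0.17 to 0.028 with single libraries left out. Cdkn2b was -0.23, -0.26 and -0.29 with the 3 scalings, and -0.087 with median-of-ratios scaling without replicate 6. Cdkn2c was -0.082, -0.093, -0.13 and -0.092 in the same order. The Mdm2 to Trp53 log2 ratio (PGC;Ras;APC FF minus control) was -0.99, and -1.16 to -0.79 with single libraries left out. For Cdkn1a to Cdkn1b it was 0.39 (0.27 to 0.49), for Bbc3 to Bax 0.080 (-0.14 to 0.24) and for Cdkn2c to Cdkn1b 0.27 (0.18 to 0.42). No paired analysis was possible because the groups share no replicate numbers.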
